A study of Canis lupus familiaris with 51 samples.

Results

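Beside the neoplastic mast cells, a canine cutaneous mast cell tumor (MCT) contains connective tissue, and the tumors compared here lay at the ends of a score of its main collagens. Among the 39 tumors of the differentiated class, the 13 with the highest score are called collagen-rich and the 13 with the lowest score collagen-poor, which makes 26 of the 51 tumors measured. The score was the mean of 12 probes, 4 of COL1A1, 6 of COL1A2 and 2 of COL3A1, after the log2 level of each probe had been scaled to a mean of 0 and an SD of 1 over the 39 tumors. Since the groups were chosen by these probes, their levels are described without a test, and all tests are of the other probes.

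COL1A1 and COL1A2 encode the chains of type I collagen, and COL3A1 that of type III collagen, the fibrillar collagens that give the dermis its tensile strength. The chains are made mainly by fibroblasts, which hydroxylate and fold them with the help of dedicated enzymes and chaperones. After secretion, the ends of the procollagen molecule are cut off, and the molecules join into fibrils that small proteoglycans coat and lysyl oxidases crosslink.

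RNA from the central part of each tumor, sampled in diagnostic or therapeutic surgery, was labeled (1 color) and put on an Agilent canine array, 1 tumor per array. The brightness of a probe, given here as a normalized log2 level, is taken as a measure of the transcript it is named for. For some genes the probes gave different answers, as described further on. The study had 18 reference tumors and assigned a class to the other 33 by their expression. It chose the references by histological grade and mitotic index, with all pathologists in agreement. The differentiated ones had a low Kiupel grade and a low mitotic index. Of the collagen-rich tumors 7 were reference tumors, and of the collagen-poor tumors 1. The labels name no treatment or genotype for any group.

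The collagen-rich tumors came from 9 female and 4 male dogs aged 4 to 12 years (median 8), among them 2 crossbred dogs, 3 Labradors, 1 boxer, 6 dogs of other breeds and 1 without a breed given. The collagen-poor tumors came from 7 female and 5 male dogs and 1 without a sex given, aged 4 to 13 years (median 8), among them 5 crossbred dogs, 2 Labradors, 3 boxers and 3 dogs of other breeds. The 13 tumors between them (middle) came from 10 female and 3 male dogs aged 3 to 13 years (1 without an age given), among them 4 crossbred dogs, 2 Labradors, 3 boxers and 4 dogs of other breeds. The 12 undifferentiated tumors, from 4 female and 7 male dogs and 1 without a sex given, aged 5 to 14 years (1 without an age given), took no part in the choice. They came from 3 crossbred dogs, 2 Labradors, 2 boxers, 4 dogs of other breeds and 1 without a breed given. Each tumor has a case number of its own in the labels, and p-values measure the spread between tumors. The labels do not say that each case is another dog, and the collagen-poor T106 and T107 are both from female Labradors aged 7 years.

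The score ran from 0.60 to 1.31 (median 0.84) in collagen-rich tumors, from 0.02 to 0.53 in the middle, and from -2.76 to -0.06 (median -1.07) in collagen-poor tumors. The upper boundary lay between tumor T92 at 0.60 and T87 at 0.53, and the lower between T131 at 0.02 and T82 at -0.06. Neither boundary fell into a wide gap, but a wider one lay just inside the collagen-poor group, between T82 and T135 at -0.51. The collagen-poor group was the more spread of the 2, and T130 lay apart at its lower end. In the undifferentiated class the score ran from -2.13 to 0.93 (median -0.32).

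**Figure D1:**
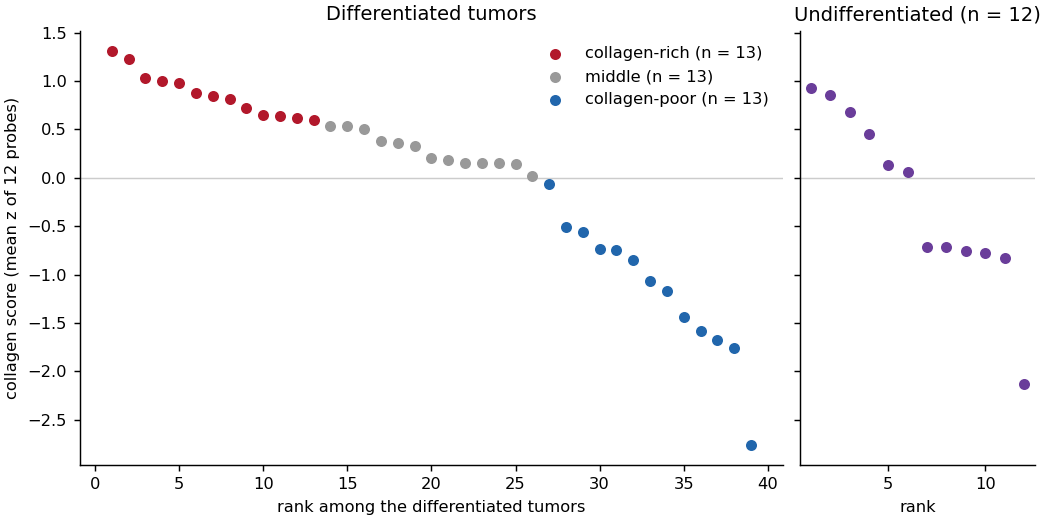
Collagen score (mean z of 12 probes, y axis) of each tumor against its rank by the score (x axis), for the 39 differentiated tumors on the left and the 12 undifferentiated tumors on the right. Points are tumors and colors are groups. The score falls slowly from 1.31 to -0.06 over the first 27 tumors and then down to -2.76.

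The COL1A1 probe with the widest range (A_11_P147258) had levels from 10.80 to 12.59 (median 11.74) in collagen-rich, from 9.48 to 11.24 (10.47) in middle and from 6.08 to 9.78 (7.93) in collagen-poor tumors. Its groups differed by 3.72 on the log2 scale, and the other 3 probes of COL1A1 by 3.37, 3.02 and 2.10. The 6 probes of COL1A2 differed by 3.12, 3.06, 3.05, 2.51, 1.13 and 0.75. The last 2 were also the brightest, with median levels of 18.47 and 17.87 in collagen-rich and of 17.41 and 17.34 in collagen-poor tumors. No spot of a rule probe was flagged as saturated in either group. The last probe lay at 17.77 to 17.95 in collagen-rich and at 17.76 to 17.88 in middle tumors, nearly the same range. Whether the scale is compressed at this brightness was not tested. The 2 probes of COL3A1 differed by 2.22 and 1.85. Thus the size of the collagen difference depended on the probe that was read, while each of the 12 probes followed the score with an r of at least 0.87, as it had to by construction.

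Outside the rule genes, 43589 probes were tested with limma, and a call required both an adjusted p (Benjamini-Hochberg) under 0.01 and a change of 2-fold or more. In all 445 probes (1.02% of those tested) were called, of which 443 (1.02%) were higher and 2 (0.00459%) lower in collagen-rich tumors. The 443 probes carried 189 different gene symbols, 53 of them with at least 2 called probes, and 180 of the probes had no symbol. Their differences ran from 1 to 3.85 with a median of 1.45, against a median of -0.05 over all probes. In 91 of the 443, no collagen-rich tumor overlapped with a collagen-poor one, where 98 probes (0.225%) did so among all tested. In bulk RNA, fewer cells of a type and less RNA per cell cannot be told apart, and this holds for all differences given here.

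Smaller differences ran in both directions. At an adjusted p under 0.05 without a fold limit, 1291 probes were higher and 700 lower, and at an unadjusted p under 0.05 the lower ones were in the majority with 4429 against 3359. The count of calls fell from 445 to 95 when the reference tumors were left out (9 against 9 tumors), with 94 of them higher in collagen-rich tumors. For that setting the score was scaled anew over the 26 other differentiated tumors, and its top 9 were compared with its bottom 9. Of these top 9 only 6 belonged to the collagen-rich group used elsewhere, while all of the bottom 9 belonged to the collagen-poor group. Fewer tumors, other members and the absence of reference tumors thus cannot be told apart in it. With the slide as a fixed block, a fit chosen after the data had been seen, 89 probes were called, 88 of them higher. That fit rests on the slides that held both groups, and most slides held only collagen-rich or only collagen-poor tumors. Fewer usable tumors and the slide thus cannot be told apart in it.

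Lists of genes for the steps of matrix assembly and for the cell types of skin and tumor were set beside this background, each gene by its brightest probe. Of the 366 different genes measured in them 45 were called, 45 of 45 higher in collagen-rich tumors, and they lay in the matrix, fibroblast, smooth muscle and T cell lists. The remaining lists had no called gene.

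**Figure D2:**
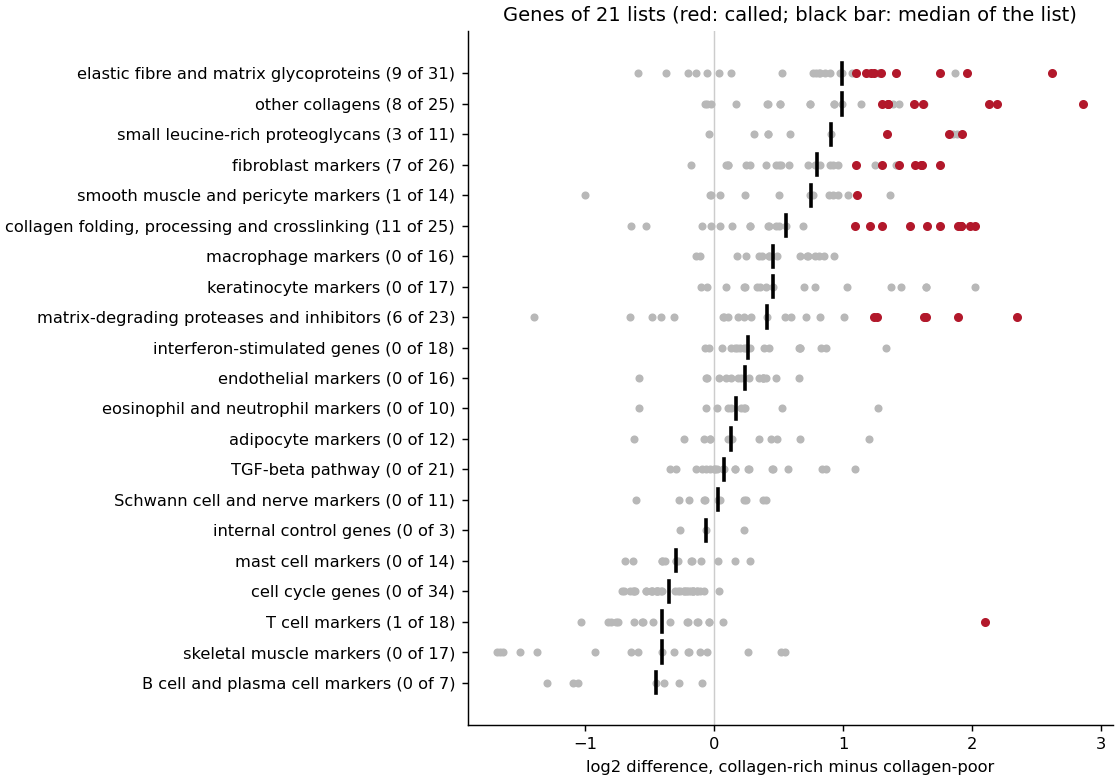
Log2 difference, collagen-rich minus collagen-poor (x axis), of each measured gene in 21 lists (y axis, with the number of called genes of those measured). Red points are called genes, gray points are not called, and black bars are medians of the lists. The lists of matrix genes lie to the right, with medians up to 0.99, and hold nearly all red points.

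Of the other collagens, 8 of 25 measured genes (32%) were called higher, and the list had a median difference of 0.99. They were COL5A1 and COL5A2, COL6A1 and COL6A3, COL12A1 and COL14A1, and the basement membrane chains COL4A1 and COL4A2. COL5A1, a chain of type V collagen, which is built into type I fibrils and regulates their width, had levels from 10.95 to 12.90 (median 11.95) in collagen-rich and from 7.92 to 10.23 (9.04) in collagen-poor tumors. Its groups did not overlap, with a difference of 2.86 (SE 0.25, limma adjusted p = 2.3e-08), and 3 of its 3 probes were called. For COL5A2, its partner chain, the levels were 13.75 to 15.11 (median 14.44) against 11.16 to 12.94 (12.40), again without overlap, with a difference of 2.19 (SE 0.18, adjusted p = 7e-09). All 4 probes of COL5A2 were called. COL6A3, a chain of the beaded filaments of type VI collagen, lay at 9.14 to 10.84 (median 10.10) against 7.31 to 9.53 (7.91), and 1 collagen-poor tumor lay above the lowest collagen-rich one. Its difference was 2.13 (SE 0.21, adjusted p = 2.2e-07). The smallest of the 4 collagen differences described was that of COL14A1, a fibril-associated collagen, with 1.62 (SE 0.28, adjusted p = 0.00074), where 2 collagen-poor tumors lay inside the collagen-rich range. With the reference tumors left out, neither COL14A1 (0.78, adjusted p = 0.54) nor COL6A3 (1.71, 0.015) was called. The basement membrane chains COL4A1 and COL4A2 differed by 1.35 (adjusted p = 0.00039) and 1.55 (2.9e-06). Among the genes not called were COL8A1 with 1.43 (adjusted p = 0.094), COL15A1 with 0.99 (0.0068, below the fold limit) and COL7A1, the anchoring fibril collagen of the epidermal border, with 0.51 (0.65). COL2A1, the collagen of cartilage, was not called on its brightest probe (0.51, adjusted p = 0.033) but on another (2.21, 2e-07). Even the brightest probe was dim, with means of 4.29 and 3.78, and well above background on 6 collagen-rich and 0 collagen-poor arrays. The called probe was dimmer still, so its difference is imprecise.

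The genes that modify, fold, trim and crosslink collagen had the largest share of called genes among the lists, 11 of 25 (44%), with a median of 0.56. The 11 covered each of these steps: the prolyl hydroxylases P4HA2, P4HA3 and LEPRE1, the lysyl hydroxylase PLOD1, the chaperones SERPINH1 and FKBP10, the procollagen proteinases BMP1 and ADAMTS2 with their enhancer PCOLCE, the crosslinking enzyme LOXL2, and SPARC, a secreted collagen-binding protein. FKBP10 lay at 10.55 to 11.80 (median 11.15) in collagen-rich and at 8.48 to 10.03 (9.1) in collagen-poor tumors, without overlap, a difference of 2.02 (SE 0.18, limma adjusted p = 1.8e-08). P4HA2 had 12.33 to 13.80 (median 12.79) against 9.86 to 12.07 (10.76), also without overlap, a difference of 1.91 (SE 0.24, adjusted p = 5.5e-06). For PCOLCE the levels were 12.06 to 13.28 (median 12.97) against 10.17 to 12.58 (10.56), and 2 collagen-poor tumors lay above the lowest collagen-rich one. Its difference was 1.91 (SE 0.23, adjusted p = 3.6e-06). LOXL2 showed more overlap, with 3 collagen-poor tumors inside the collagen-rich range, 8.64 to 10.70 (median 9.80) against 7.07 to 9.59 (7.58), a difference of 1.98 (SE 0.29, adjusted p = 9.3e-05). With the reference tumors left out, LOXL2 (1.72, adjusted p = 0.056) and PCOLCE (1.45, 0.054) were not called.

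SPARC was called with 5 of 5 probes. The probe with the largest difference lay at 12.74 to 14.04 (median 13.16) in collagen-rich and at 9.55 to 11.63 (10.51) in collagen-poor tumors, a difference of 2.77 (SE 0.22, limma adjusted p = 3.9e-09), and its groups stood more than 1 log2 unit apart. As with COL1A2, the brighter SPARC probes differed less, by 1.89 and 1.63 at mean levels of 17.46 and 17.10 in collagen-rich tumors. Not every enzyme of the pathway was called. P4HA1, the other main catalytic subunit of prolyl hydroxylase, differed by -0.02 (adjusted p = 0.97), PLOD2 by 0.43 (0.62), CRTAP, which acts in 1 complex with LEPRE1, by 0.05 (0.82), and TGM2 by -0.64 (0.66). P4HB, the shared subunit of the prolyl hydroxylases, differed by 0.48 (adjusted p = 0.00021), below the fold limit.

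In the small leucine-rich proteoglycans, which bind collagen fibrils and space them, 3 of 11 genes (27.3%) were called, and the median was 0.91. LUM (lumican) lay at 13.46 to 15.26 (median 14.45) in collagen-rich and at 11.28 to 13.41 (12.64) in collagen-poor tumors. The groups of LUM did not overlap, though the gap between them was small, and the difference was 1.92 (SE 0.23, limma adjusted p = 2.9e-06). BGN (biglycan), at 5.78 to 9.67 (median 8.41) against 4.98 to 7.54 (6.28), overlapped widely, with 10 collagen-poor tumors above the lowest collagen-rich one, and differed by 1.82 (SE 0.38, adjusted p = 0.0042). ECM2 differed by 1.34 (adjusted p = 0.0037). With the reference tumors left out, neither BGN (1.64, adjusted p = 0.11) nor ECM2 (0.73, 0.49) was called. DCN (decorin), the best known of the family, differed by 0.59 (adjusted p = 5.1e-05) on its brighter probe, below the fold limit, and was called on its other probe (1.21, 3.2e-05), while ASPN with 1.88 (0.013) and OGN with 1.85 (0.048) had large but variable differences that were not called.

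Among elastic fiber and matrix glycoproteins 9 of 31 (29%) were called with a median of 0.99, and 26 of the 31 differences were above 0. THBS2, a matricellular thrombospondin needed for regular collagen fibrils, lay at 11.53 to 13.86 (median 12.90) in collagen-rich and at 7.88 to 11.53 (10.43) in collagen-poor tumors, the ranges meeting at their ends. Its difference of 2.62 (SE 0.37, limma adjusted p = 4.2e-05) was the highest of the list. MFAP2, a protein of microfibrils, had 9.86 to 11.13 (median 10.58) against 7.39 to 9.36 (8.47), without overlap, a difference of 1.96 (SE 0.20, adjusted p = 2.2e-07). DPT (dermatopontin), which binds decorin and speeds up fibril formation, had 13.57 to 15.34 (median 14.73) against 11.45 to 14.70 (12.67), with 4 collagen-poor tumors inside the collagen-rich range, a difference of 1.75 (SE 0.31, adjusted p = 0.00091). THBS3 differed by 1.41 (adjusted p = 0.0017), and FBLN1, FBLN5, EFEMP2, NID1 and LTBP1 by 1.1 to 1.29. With the reference tumors left out, DPT (1.15, adjusted p = 0.16) and THBS3 (0.87, 0.47) were not called. FBN1 (fibrillin 1), at 0.99 (adjusted p = 0.014) on its brightest probe, was called on others (1.31, 0.0031 and 1.22, 0.0048). ELN (elastin) itself differed by -0.20 (adjusted p = 0.58), and TNC (1.87, adjusted p = 0.057) and POSTN (1.41, 0.048) were not called.

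Some matrix-degrading proteases were higher as well. Of 23 proteases and inhibitors 6 (26.1%) were called, namely MMP2, MMP11, MMP14, MMP19, MMP23B and the collagen-cleaving cathepsin CTSK, and the median of the list was 0.41. MMP2 (gelatinase A) lay at 13.08 to 14.74 (median 13.72) in collagen-rich and at 10.47 to 12.98 (11.51) in collagen-poor tumors, without overlap, a difference of 2.35 (SE 0.24, limma adjusted p = 4.3e-07). Its membrane-bound activator MMP14 had 6.00 to 8.07 (median 6.51) against 3.40 to 6.50 (4.93), with 2 collagen-poor tumors inside the collagen-rich range, a difference of 1.64 (SE 0.27, adjusted p = 0.00033). Its spot rose above background in 13 of 13 collagen-rich and 10 of 13 collagen-poor arrays. MMP23B differed by 1.89 (adjusted p = 2.3e-08) and MMP11 by 1.63 (0.0041). With normexp background correction MMP14 differed by 0.57 and MMP11 by 0.40, below the fold limit, and with the reference tumors left out neither these (1.49, adjusted p = 0.082, and 1.46, 0.33) nor MMP2 (1.88, 0.018) were called. The inhibitors TIMP1 (0.19, adjusted p = 0.77), TIMP2 (0.23, 0.64) and TIMP3 (0.41, 0.61) and the proteases MMP9 (-0.41, 0.85) and MMP12 (-1.39, 0.12), which leukocytes also make, were not called.

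Fibroblast markers had 7 of 26 genes called (26.9%) and a median of 0.80, with 25 of 26 differences above 0. PDGFRA, a receptor that marks most fibroblasts, lay at 9.20 to 11.06 (median 10.23) in collagen-rich and at 7.82 to 9.18 (8.39) in collagen-poor tumors. The groups of PDGFRA just failed to touch, and the difference was 1.60 (SE 0.17, limma adjusted p = 8.1e-07). SERPINF1, a secreted fibroblast product, had 15.58 to 16.57 (median 16.03) against 13.11 to 15.44 (14.57), without overlap, a difference of 1.61 (SE 0.19, adjusted p = 2.9e-06). CLEC3B (tetranectin) had 9.20 to about 12 (median 10.90) against 8.13 to 11.45 (9.15), with 6 collagen-poor tumors inside the collagen-rich range, and differed by 1.56 (SE 0.33, adjusted p = 0.006). The transcription factor PRRX1 (1.43, adjusted p = 0.00094), FSTL1 (1.30, 0.0074) and PDPN (1.1, 0.0084) were called as well. With the reference tumors left out, CLEC3B (0.99, adjusted p = 0.56) and PDGFRA (1.33, 0.013) were not called. Among broad mesenchymal genes, VIM at 0.11 (adjusted p = 0.56), THY1 at 0.28 (0.55) and S100A4 at -0.18 (0.52) were not called. PDGFRB was called on 1 of its 2 probes (1.09, adjusted p = 0.0024), not on the brighter (0.48, 0.42), and C1S likewise (1.12, 0.0064, against 0.78, 0.029). The summed linear level of the 26 markers ran from 373920 to 539844 (median 447206) in collagen-rich and from 243078 to 468305 (352982) in collagen-poor tumors. The sums thus overlapped while single members separated the groups. The brightest members weigh most in these sums, namely S100A4 (mean levels 17.38 and 17.55) and VIM (16.35 and 16.24), which were not called.

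**Figure D3:**
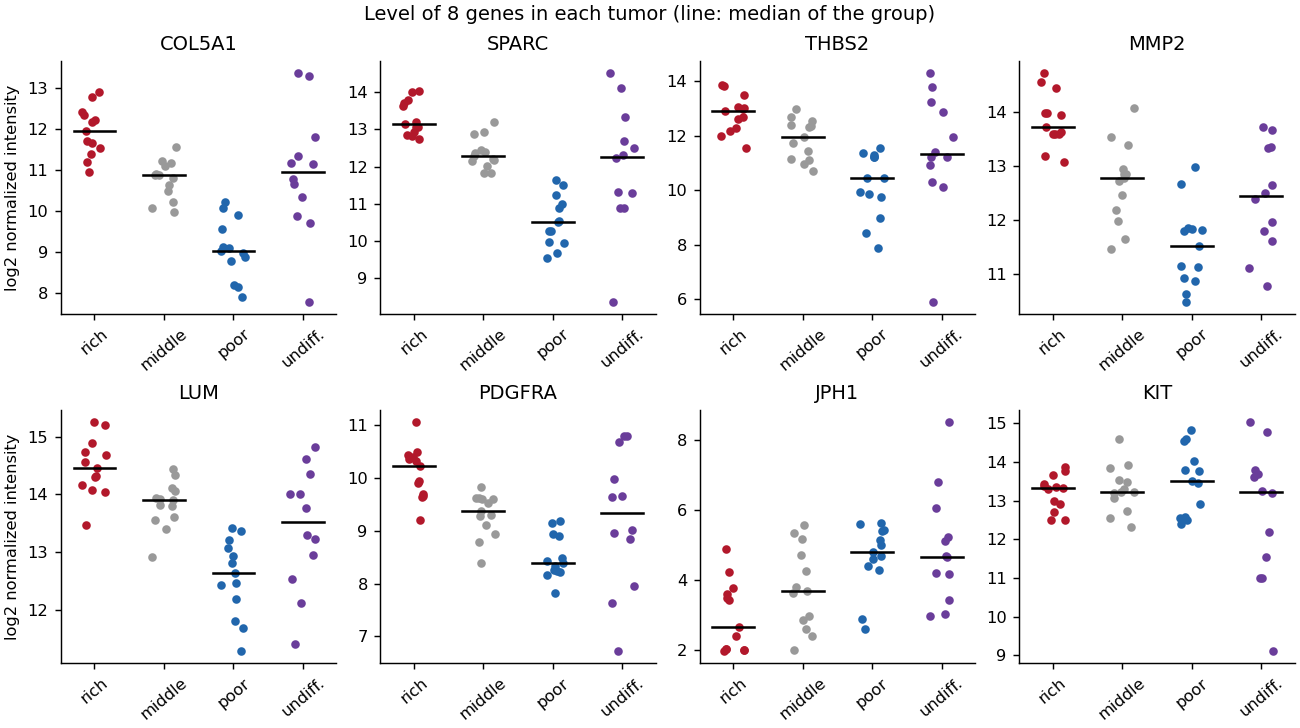
Log2 normalized level (y axis) of 8 genes in each tumor, by group (x axis: rich, middle, poor and undifferentiated). Points are tumors and lines are group medians. COL5A1, SPARC, MMP2, LUM and PDGFRA separate rich from poor tumors with the middle between them, the ranges of THBS2 meet at 11.53, JPH1 is lower in rich tumors with overlap, and KIT overlaps fully.

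Smooth muscle and pericyte markers had 1 of 14 genes called (7.14%) and a median of 0.75. The called gene was CALD1, an actin-binding protein that fibroblasts also express, with 12.61 to 13.89 (median 13.30) in collagen-rich and 11.41 to 13.27 (12.15) in collagen-poor tumors, a difference of 1.11 (SE 0.19, limma adjusted p = 0.00062). In CALD1, 2 collagen-poor tumors lay inside the collagen-rich range, and of its 3 probes 1 was called. With the reference tumors left out CALD1 was not called (0.68, adjusted p = 0.096). The contractile genes MYH11 (1.04, adjusted p = 0.45), TAGLN (0.74, 0.30), MYL9 (0.92, 0.30) and CNN1 (-0.02, 0.97) were not called.

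Ligands, receptors and targets of TGF-beta, the best known inducer of collagen synthesis, had 0 of 21 genes called by limma and a median of 0.08, with 4 of them higher at an unadjusted p under 0.05. The ligands differed by 0.16 (TGFB1, adjusted p = 0.76), 0.07 (TGFB2, 0.94) and 0.87 (TGFB3, 0.0076, below the fold limit). The receptor ACVRL1 differed by 0.84 (adjusted p = 0.0042) and the coreceptor TGFBR3 by 1.09 (0.023). SMAD7, an inhibitor that the pathway itself induces, was not called (-0.09, adjusted p = 0.85).

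The mast cell markers check the tissue named in the labels. KIT, the receptor for stem cell factor, lay at 12.50 to 13.88 (median 13.32) in collagen-rich and at 12.40 to 14.83 (13.51) in collagen-poor tumors, a difference of -0.29 (SE 0.26, limma adjusted p = 0.61). CMA1 (chymase) lay at 15.89 to 17.87 (median 16.97) against 15.07 to 17.87 (16.72), and MS4A2, the beta chain of the high-affinity IgE receptor, at 14.81 to 16.20 (15.50) against 14.19 to 16.68 (16.03). These genes overlapped in nearly their whole ranges and were well above background on all 26 arrays. CMA1 differed by 0.28 (adjusted p = 0.60), a direction that turned with the scan session or the slide as a fixed block (-0.12 and -0.33), and MS4A2 by -0.38 (0.40). Of 14 mast cell markers 0 were called by limma, 1 was lower at an unadjusted p under 0.05, 11 had a difference below 0, and the median was -0.29. The summed level ran from 201537 to 573757 (median 392858) in collagen-rich and from 190067 to 635259 (417072) in collagen-poor tumors. CPA3 and HDC had no probe under these symbols.

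Markers of the other cell types that a skin tumor can contain had no called gene, with 1 exception. The T cell list had 1 of 18 genes called (5.56%), NKG7, whose probe is described further on, while 16 of the 18 lay below 0 with a median of -0.40, among them the defining CD3D at -1.03 (limma adjusted p = 0.21), CD3G at -0.82 (0.36) and CD3E at -0.47 (0.37). All 7 B cell and plasma cell markers lay below 0 with a median of -0.45, 0 of them called and 3 lower at an unadjusted p under 0.05. Macrophage markers had a median of 0.46, 0 of 16 called and 6 higher at an unadjusted p under 0.05, with CSF1R at 0.93 (adjusted p = 0.039) and CD163 at 0.85 (0.22). Keratinocyte markers had a median of 0.46, 0 of 17 called and 1 higher at an unadjusted p under 0.05. Their summed level spanned 10841 to 399292 (median 26760) in collagen-rich and 5352 to 641291 (8224) in collagen-poor tumors, so that some tumors of both groups had high levels of these markers. Endothelial markers had a median of 0.24 (0 of 16 called, 1 higher at an unadjusted p under 0.05), adipocyte markers of 0.13 (0 of 12, 1 higher), eosinophil and neutrophil markers of 0.17 (0 of 10, 1 lower), Schwann cell markers of 0.03 (0 of 11, none at that level) and interferon-stimulated genes of 0.26 (0 of 18, 1 higher).

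Cell cycle genes lay on the other side. Of 34 genes, 33 had a difference below 0 and the median was -0.35, against 59.9% of all probes below 0 and a median of -0.05. The differences were small, from -0.71 for TTK (limma adjusted p = 0.28) to 0.04 for KIF20A (0.95), 0 genes were called, and 6 were lower at an unadjusted p under 0.05. MCM4, a subunit of the replicative helicase, had -0.41 (adjusted p = 0.018), the single gene of the list with an adjusted p under 0.05. The differentiated reference tumors, 7 of the collagen-rich and 1 of the collagen-poor tumors, were chosen partly for a low mitotic index. The part of that choice in these differences was not tested.

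The 2 probes called lower were both probes of JPH1 (junctophilin 1), which ties the plasma membrane to the sarcoplasmic reticulum in skeletal muscle. The first lay at 1.96 to 4.89 (median 2.66) in collagen-rich and at 2.58 to 5.61 (4.79) in collagen-poor tumors, a difference of -1.69 (SE 0.37, limma adjusted p = 0.0074). Both groups were dim, with 2 of 13 collagen-rich and 10 of 13 collagen-poor arrays well above background, and they overlapped. The second JPH1 probe differed by -1.61 (SE 0.22, adjusted p = 2.3e-05), and the remaining one, not well above background on any of these arrays, by -0.71 (0.087). Without T130, the tumor with the lowest score, the first probe was no longer called (-1.69, adjusted p = 0.012), nor was CLEC3B (1.53, 0.011). Skeletal muscle markers, of which 14 of 17 lay below 0 with a median of -0.40, had 0 genes called and 4 lower at an unadjusted p under 0.05, such as MYOT at -1.63 (adjusted p = 0.089) and TNNC2 at -1.37 (0.10). Their summed level ran from 191204 to 241384 (median 202790) in collagen-rich and from 148648 to 274340 (228159) in collagen-poor tumors. That sum was mostly the signal of 1 bright ACTA1 probe, with mean levels of 17.58 and 17.64 and a difference of -0.05, so it says little about the other members. The part of muscle tissue in the difference of JPH1 was not tested.

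Ordered by size, the 10 genes with the largest differences among called probes that carry a symbol in the array's own annotation were ITGA11, SPOCK1, LILRB3, MFSD1, D2HGDH, SLITRK5, COL5A1, SPARC, THBS2 and ADRB3, of which only some are genes of the matrix. PAMR1, a secreted protease-like protein whose symbol was looked up through its gene number, would stand among them with 2.88 (SE 0.46, limma adjusted p = 0.00024). ITGA11, a collagen-binding integrin chain of fibroblasts, had the largest, with levels of 10.41 to 12.31 (median 11.20) in collagen-rich and 5.91 to 8.61 (7.54) in collagen-poor tumors, a difference of 3.85 (SE 0.26, limma adjusted p = 2.2e-10). SPOCK1 (testican, a matrix proteoglycan) differed by 3.62 (SE 0.31, adjusted p = 1.2e-08), and its groups, at 10.45 to 12.20 (median 11.60) and 6.12 to 9.18 (7.68), stood apart as well. D2HGDH, a mitochondrial enzyme that breaks down D-2-hydroxyglutarate, lay at 14.74 to 16.13 (median 15.31) against 10.96 to 13.29 (12.47), a difference of 2.96 (SE 0.21, adjusted p = 2.9e-10). ADRB3, the beta-3 adrenergic receptor of fat, lay at 13.67 to 14.94 (median 14.15) against 10.53 to 12.08 (11.71), a difference of 2.62 (SE 0.17, adjusted p = 8.7e-11). Of these 4 genes the array carries 1 probe each, so no second probe could be compared.

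For other genes of this group a second probe gave another answer. LILRB3, a leukocyte receptor from a family of near-identical copies, differed by 3.49 (SE 0.38, limma adjusted p = 7.2e-07) on 1 probe, and by -0.09 (0.67) on another that was not well above background on any of the 26 arrays. MFSD1, a lysosomal membrane transporter, differed by 3.09 (SE 0.20, adjusted p = 8.7e-11) on 1 probe, from 8.26 to 11.35 in the group means, and by 0.02 (0.95) on another that was well above background on all arrays, at 6.41 and 6.43. SLITRK5, a neuronal membrane protein, was well above background on 8 of 13 collagen-rich and 0 of 13 collagen-poor arrays (limma adjusted p = 0.0025). It was 4.09-fold higher when the collagen-poor level was replaced, array by array, by the dimmest signal the scanner software rated as well above background. That signal is no strict limit of detection. The brightest COL2A1 probe had a mean of 3.78 in collagen-poor tumors and was well above background on 0 of their arrays. With normexp background correction SLITRK5 differed by only 0.67 (adjusted p = 0.02), so the fold depends on the background correction, and SLITRK5 lost its call in 6 of 20 alternatives. Its other probe, below background throughout, differed by 0.01 (0.97).

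Several of these probes hold 1 of 2 short runs of bases. CCTGCTGG is in the probes of ITGA11 and SPOCK1 and in 3 probes of COL1A2, while CCCTCCTG is in those of D2HGDH, ADRB3, BCAT2 and TSC22D4 and in none of the 12 probes of the score. The 60-base probes below show these runs, 5′ to 3′, with the deposited positions of the probe (the files name no genome build, and some spans exceed the length of the probe). Capitals mark CCCTCCTG or CCTGCTGG, 8-letter runs chosen after the values had been seen, and in the MFSD1 pair a run that both probes hold and at which the second ends. The first 3 belong to COL1A2 and were part of the score (chr14:22850338-22852645, chr14:22862056-22862261 and chr14:22857152-22857307, plus strand). D2HGDH lies at chr25:54510819-54510878 (plus), BCAT2 at chr1:110432363-110432422 (plus), TSC22D4 at chr6:12203924-12203983 (plus), ITGA11 at chr30:35316573-35317278 (minus) and SPOCK1 at chr11:27747520-27747579 (minus). The MFSD1 probes at chr34:28091191-28091250 and chr34:28091166-28091225 (plus) overlap by 35 positions, in which the printed sequences are not identical at every base.
COL1A2 probe A_11_P147268: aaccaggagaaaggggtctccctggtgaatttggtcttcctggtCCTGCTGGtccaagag
COL1A2 probe A_11_P147118: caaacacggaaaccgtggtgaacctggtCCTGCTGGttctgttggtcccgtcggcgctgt
COL1A2 probe A_11_P145878: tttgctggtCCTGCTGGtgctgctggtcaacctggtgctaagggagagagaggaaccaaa
ITGA11 probe: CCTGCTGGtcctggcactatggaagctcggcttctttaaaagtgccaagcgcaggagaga
SPOCK1 probe: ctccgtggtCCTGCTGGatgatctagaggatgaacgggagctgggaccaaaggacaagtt
D2HGDH probe: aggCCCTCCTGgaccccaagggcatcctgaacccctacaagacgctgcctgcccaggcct
BCAT2 probe: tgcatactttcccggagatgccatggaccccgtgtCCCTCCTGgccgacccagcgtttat
TSC22D4 probe: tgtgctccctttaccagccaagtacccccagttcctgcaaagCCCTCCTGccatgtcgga
MFSD1 probe, difference 3.09: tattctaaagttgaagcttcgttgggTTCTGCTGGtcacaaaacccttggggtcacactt
MFSD1 probe, difference 0.02: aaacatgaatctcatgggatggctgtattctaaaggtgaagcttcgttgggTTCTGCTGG

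CCCTCCTG was held by 58 of 43603 probes (0.133%), and 14 of the 58 (24.1%) were called higher. With a further G, as CCCTCCTGG, it was held by 16 probes (0.0367%), of which 8 (50%) were called, with a median difference of 1.25. CCTGCTGG was held by 123 probes (0.282%), 3 of them of COL1A2, and 7 of the 120 tested (5.83%) were called. On the other strand, CAGGAGGG had 0 of 60 probes (0.138% of all), CCAGCAGG 0 of 81 (0.186%) and CCAGGAGGG 0 of 13 (0.0298%) called. Since the runs were picked from called probes, their shares of calls are a description, and at the background of 1.02% the probes of the other strand are too few to show a lower share. Among the probes that hold either 8-letter run, none of which holds both, 21 of 178 (11.8%) were called, and they made up 4.74% of the 443. A match is a description, not a binding site, and which transcripts bind these probes was not tested.

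**Figure D4:**
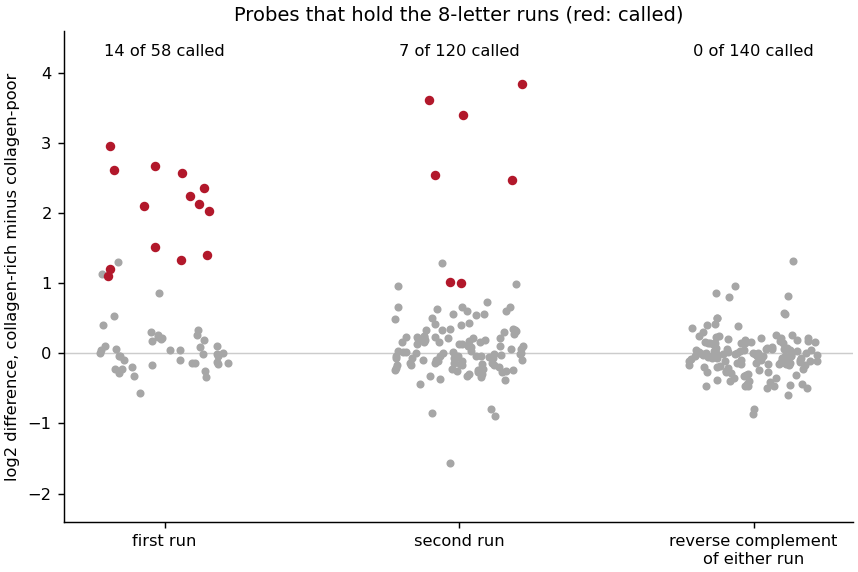
Log2 difference, collagen-rich minus collagen-poor (y axis), of the probes that hold the first 8-letter run (58 probes), the second (120) or the reverse complement of either (140), on the x axis. Red points are called probes, gray points are not, and the spread of points within a column has no meaning. Called probes number 14, 7 and 0. The runs were picked from called probes, so the columns are a description.

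The 21 called probes carried 12 symbols (ADRB3, BCAT2, C8H14orf180, D2HGDH, ITGA11, LAMA4, NKG7, PRKCSH, SPOCK1, STAT2, TSC22D4 and WDR91), 4 of which had another probe without the runs. BCAT2, a mitochondrial aminotransferase, differed by 2.13 (SE 0.16, limma adjusted p = 1.5e-09) on the probe with the run and by 0.03 (0.92) on the probe without it. TSC22D4 differed by 1.52 (adjusted p = 6.4e-08) against 0.09 (0.80) and 0.33 (0.38) on the 2 probes without the run, and PRKCSH by 1.20 (9e-09) against 0.23 (0.44). LAMA4, a laminin chain, was the exception, with 1.02 (adjusted p = 0.0026) on a probe with the run and 1.18 (0.00047) on the probe without it, both called. For ITGA11, SPOCK1, D2HGDH, ADRB3 and NKG7, all with a single probe, which of these patterns applies was not tested. NKG7, a granule protein of cytotoxic lymphocytes, lay at 11.41 to 12.68 (median 12.09) against 9.28 to 11.11 (9.81), a difference of 2.10 (SE 0.18, adjusted p = 1e-08), while GZMA, also of cytotoxic lymphocytes, had -0.55 (0.50) and CD8A -0.21 (0.59). Without the probes that hold either run, 420 probes were called, 418 of them higher.

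Likeness to the score was measured as the Pearson r over the 39 differentiated tumors, a description, since the same tumors made the groups. Among called probes the 20 closest had an r of 0.94 to 0.98. They included 4 probes of SPARC, 2 of COL5A2, and those of D2HGDH, ITGA11, ADRB3, SPOCK1, MFSD1, LILRB3 and SLC6A11, 7 had no symbol, and 7 held an 8-letter run. Among the other collagens, r was 0.94 for COL5A1 and COL5A2, 0.69 for COL6A3 and 0.61 for COL14A1. Among fibroblast markers it was 0.88 for SERPINF1, 0.77 for PDGFRA, 0.67 for DPT and 0.48 for CLEC3B.

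The 12 undifferentiated tumors, which the choice of groups did not use, showed whether the called probes also follow the score in other tumors. The slope of each probe on the score was fitted with limma, as log2 change per unit of score. Tumor T9.1 lay apart at the lower end, at -2.13 with the next tumor at -0.83. No fit left T9.1 out, so its weight in the slopes was not tested. Of the 443 probes called higher, 429 (96.8%) had a slope above 0, where 43.9% of all probes did, and their median slope was 0.86 against -0.03 over all probes. At an adjusted p under 0.01 the slope was called for 70 of the 443 (15.8%), while 97 of all probes (0.223%) were called rising and 5 (0.0115%) falling. At an adjusted p under 0.05 the rising slopes numbered 209 of the 443 and 717 of all probes.

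**Figure D5:**
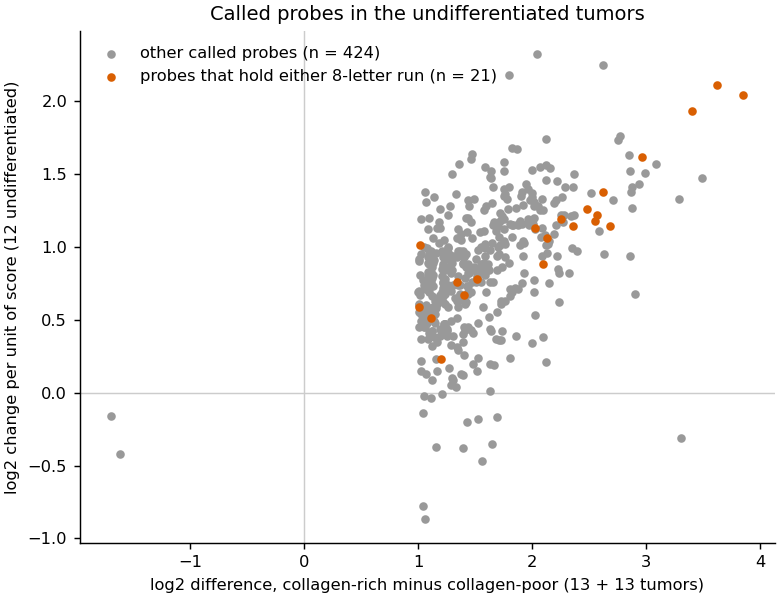
Log2 change per unit of collagen score in the 12 undifferentiated tumors (y axis) against the log2 difference between collagen-rich and collagen-poor differentiated tumors (x axis) for the 445 called probes. Orange points hold either 8-letter run (21 probes) and gray points do not. Of the 443 probes on the right, 429 lie above 0.

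By gene, COL5A1 lay at 7.79 to 13.37 (median 10.96) in the undifferentiated tumors and rose with the score, with a slope of 1.52 (SE 0.21, limma adjusted p = 0.0074). SPARC had a slope of 1.76 (SE 0.15, adjusted p = 0.00033), MFAP2 of 1.19 (SE 0.11, 0.00051) and PCOLCE of 1.16 (SE 0.16, 0.0071). The slopes of SERPINF1 (0.88, adjusted p = 0.0038), MMP23B (1.01, 0.0056), LUM (1.04, 0.0087), MMP2 (0.99, 0.009) and DPT (1.58, 0.009) were called too. With 75th percentile scaling the calls of LUM (1.06, adjusted p = 0.012) and MMP2 (0.99, 0.011) were lost. DPT was no longer called without tumor LM0 (1.55, adjusted p = 0.013), whereas PDGFRA (1.28, 0.012) and BGN (1.68, 0.015) were then called (1.34 and 1.78, both 0.0067). COL5A2 (1.30, 0.015), FKBP10 (1.31, 0.03), P4HA2 (1.38, 0.016) and MMP14 (1.52, 0.016) had slopes of similar size above the threshold. Steepest of the called genes named here was THBS2 with 2.25 (SE 0.27, adjusted p = 0.0036). The slopes of ITGA11 (2.04, 0.0033), SPOCK1 (2.11, 0.00064), D2HGDH (1.62, 6.2e-07) and ADRB3 (1.38, 1.7e-05) were called as well, and each of the 21 probes with an 8-letter run had a slope above 0, with a median of 1.14.

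For some called genes the slope had an adjusted p far above the threshold. CLEC3B, at 1.81 to 9.40 (median 5.31) in undifferentiated tumors, had a slope of -0.47 (SE 0.88, limma adjusted p = 0.85), COL14A1, at 2.01 to 8.63 (6.10), of 0.52 (SE 0.61, 0.73), and ECM2 of 0.31 (SE 0.27, 0.61). JPH1 had -0.16 (SE 0.52, 0.92), which became 0.05 without LM0. None of these 4 was shown to differ between the classes, as the test of the difference of slopes over all 51 tumors gave an adjusted p of 0.37 for CLEC3B, 0.96 for COL14A1, 0.73 for ECM2 and 0.53 for JPH1. In that test, which called 1630 probes (3.74%) at an adjusted p under 0.05, 17 of the 443 were called.

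The labels and the arrays were compared between the groups with 6 tests. Reference tumors made up 7 of 13 collagen-rich and 1 of 13 collagen-poor tumors (Fisher's exact test, two-sided p = 0.03, adjusted p = 0.14). Spots rated well above background made up 64.5% to 72.1% (median 69.8%) in collagen-rich and 60.6% to 71.7% (68.3%) in collagen-poor tumors (permutation test of the means, p = 0.046, adjusted p = 0.14). Sex (p = 0.69), crossbred dogs (0.38), boxers or Labradors (1) by Fisher's exact test and age (0.48, permutation test) gave higher p-values still. The groups shared 4 scan sessions, the last of them holding 1 tumor of each group. In these sessions 445, 441, 445 and 427 of the 445 called probes (100%, 99.1%, 100% and 96%) had the direction of the whole comparison. The probes were called on these same tumors, so their direction was largely fixed in advance and the shares are only a description. The share over all probes was not counted. A further session held only collagen-rich tumors of these groups and 3 only collagen-poor ones. The study's internal control genes for qPCR differed by -0.06 (ATP5B, limma adjusted p = 0.82), 0.23 (TMBIM4, 0.60) and -0.26 (HPRT1, 0.088), and both ATP5B (0.08 without the reference tumors) and TMBIM4 (-0.06 with the slide as a fixed block) turned direction under other settings. Another HPRT1 probe differed by -0.34 (limma adjusted p = 0.035), below the fold limit, and another ATP5B probe by 0.09 (0.81).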

How the data were processed

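RNA of 51 canine MCTs was measured on 1-color Agilent arrays with 43603 probes. The authors scanned the arrays and extracted them with Feature Extraction 9.5.1, and the deposited signal of each spot is an intensity from which the background was subtracted within the array. A table of intensities on a linear scale, deposited after quantile normalization by the authors, served as an alternative.

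Here log2 values of the processed signal were quantile-normalized across all 51 arrays. Spots flagged as feature outliers (2 to 35 per array) were then left out, and replicate spots averaged. R 4.3.3 with limma 3.58.1, statmod 1.5.0 and data.table (version 1.17.8) was used, with figures from matplotlib 3.10.9, numpy 2.4.6 and pandas 2.3.3. GEO's labels give no class. It was taken from the study's list of reference tumors and its class prediction, and LM0 was matched by elimination. Probe names are GeneName (16960 probes) or symbols looked up through gene numbers (2235) or accessions (28), and 24380 probes had none. The 12 rule probes and 2 probes described as collagen type I alpha 1 under other names were not tested. Feature filters removed no other probe.

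The tumors, gene lists and comparisons were chosen with earlier results of these data known. Named genes were the rule genes, the 10 genes with the largest called difference in each direction, up to 4 called genes per list, fixed mast cell genes and the internal controls. A list gene was read on its brightest probe. Permutation tests used 1e+05 resamples. The steps were tested on simulated data. Between 59.4% and 74.8% of spots per array were well above background, and the number of arrays limits the precision. Alternatives were other scalings, background corrections, flags, filters, thresholds, covariates, batches, group sizes, scores and choices of tumors.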

Additional observations from a re-analysis of the deposited data

Results flagged for a closer look

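THBS2 followed the collagen score more steeply in undifferentiated than in differentiated tumors. Its slope was 2.25 per unit of score over the 12 undifferentiated and 1.31 over the 39 differentiated tumors, a difference of 0.94 (limma interaction term, adjusted p = 0.027). The level ran from 5.89 to 14.31 in the undifferentiated class, below the lowest collagen-poor tumor (7.88) and above the highest collagen-rich one (13.86). The adjusted p was 0.015 to 0.031 under the alternatives tried for it. None of them left out T9.1, the undifferentiated tumor with the lowest score (-2.13), so its weight in this difference was not tested. The result was singled out because the effect differed between the classes by a test of that difference, which 3.74% of all probes passed.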

How the results depend on the processing

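The count of 445 called probes stayed within 1.5 times under most settings, among them the 75th percentile (484), the authors' table (408), the scan session as a fixed block (312, 274 of them among the 445), the slide as a random block (458) and, chosen after seeing the data, background flags (432) and leaving out T130 (382). It moved further with normexp background correction (248), 10 against 10 tumors (287), 19 against 19 tumors (267), a score from COL3A1 alone (177), the reference tumors left out (95, of which 93 among the 445) and, chosen after seeing the data, the slide as a fixed block (89). Without the fold limit 771 probes were called, 662 higher and 109 lower, so the share of higher calls was 85.9% in place of 99.6%. Called genes of the lists numbered 29 in place of 45 with the scan session as a fixed block. The cause of these shifts was not tested. Of the 33 called named genes, 11 kept their call under all alternatives in which they were tested (ITGA11, SPOCK1, MFSD1, D2HGDH, COL5A1, ADRB3, COL5A2, FKBP10, MFAP2, MMP23B and NKG7), and 0 turned direction. JPH1 lost its call in 11 of 20 alternatives, SLITRK5 in 6 of 20, CLEC3B in 11 of 21, ECM2 and MMP11 in 8, THBS3 in 6, BGN in 5, COL14A1, DPT and MMP14 in 4, COL6A3, MMP2 and CALD1 in 3, LOXL2 and PDGFRA in 2, and LILRB3, SPARC, THBS2, PCOLCE, P4HA2, LUM and SERPINF1 in 1. Of the genes that lost it in 1, all but PCOLCE lost it with the slide as a fixed block. That fit rests on the slides that held both groups. Slopes called in the undifferentiated tumors numbered 97 to 120 under the alternatives, and differences of slope between the classes 1482 to 1783. Genes that were not called turned direction in a few: CMA1 to -0.12 (scan session) and -0.33 (slide as a fixed block), TMBIM4 to -0.06 (slide as a fixed block) and ATP5B to 0.08 (reference tumors left out). For slopes in the undifferentiated tumors, TMBIM4 turned to -0.48 with the authors' table and JPH1 to 0.05 without LM0. No paired analysis was possible because the labels give no replicate numbers that pair tumors, and the fits with the scan session or the slide as a block, given above, are the comparisons within a batch. Probes near the background, such as SLITRK5, JPH1 and MMP11, have imprecise differences.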

Other observations

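The collagen-poor tumors T106 and T107, both from female Labradors aged 7 years and on the same slide, had profiles that correlated with an r of 0.982, against a median of 0.963 and a highest value of 0.988 between any 2 differentiated tumors. Of the probes called higher, 12 were not well above background on any collagen-poor array.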
